A study of Bos taurus with 6 samples.

Results

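The genes described here carry cells through the division cycle: cyclins and cyclin-dependent kinases with their inhibitors, the machinery that copies DNA, and the genes of mitosis. A list of 45 such genes was taken, and a gene counted as measured where the array held at least 1 probe set (a group of short probes for 1 transcript) annotated with that symbol alone. That held for 38 of the 45 genes, through 49 probe sets, out of 9155 genes measured in all. CDK6, CDKN1B, MCM2, GINS2, KIF11, TOP2A and MKI67 had no such probe set and were not analysed here. RNA came from articular chondrocytes of cattle (Bos taurus), the cells of joint cartilage, grown at high density as micromass cultures in medium with little serum. The 2 groups were 3 untreated cultures and 3 cultures given TGF-β1 at 5 ng/ml for 8 hours, each numbered 1 to 3, and each RNA was run on 1 Affymetrix GeneChip Bovine Genome Array. By the study's account, separate cows each gave cultures for both treatments. No label ties the replicate number to a cow. Unless said otherwise, the p-values below measure the spread of differences within replicate number, pooled in part over all genes. They cannot be tied to a spread between cows.

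A dividing cell commits itself in G1, when D-type cyclins with CDK4 or CDK6 and then E-type cyclins with CDK2 release the E2F factors that switch on replication genes. In S phase the MCM helicase opens the DNA at licensed origins, while ribonucleotide reductase supplies the nucleotides and PCNA clamps the polymerases. CDK1 with its cyclins then starts mitosis, which the spindle checkpoint holds until every chromosome is attached and which ends when the anaphase-promoting complex destroys the cyclins. Chondrocytes of adult articular cartilage rarely divide, and TGF-β slows the cycle in many epithelial cells but can drive division of chondrocytes.

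Values were log2 and centred by the authors on the median of each probe set over the 6 arrays, so 0 is that median, a step of 1 is a 2-fold difference, and the levels of different genes cannot be compared. The array medians ran from -0.01 to 0.02 and the SD over probe sets from 0.23 to 0.47, largest on the untreated array of replicate 3. Bacterial spike-in controls had a median of 1.53 on the TGF-β1 array of replicate 2 and -0.17 to 0.06 on the others. Both replicate 3 arrays were already known to be high in cell cycle genes. Each treated value was therefore set against the untreated value of the same number, with TGF-β1 minus untreated as the difference, and tested across all genes with limma with the replicate as a block, 2-sided, at a Benjamini-Hochberg adjusted p under 0.05. In RNA from whole cultures, fewer dividing cells and less RNA per cell cannot be told apart.

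After 8 hours of TGF-β1 the cell cycle genes lay slightly lower, with few single genes past the test. CCND1, CDKN2C, MCM4 and RRM1 fell, which is 4 of 38 genes (10.5%) against 4.58% of all genes called lower, and 0 of 38 rose, against 2.24% of all genes called higher. The median difference over the 38 genes was -0.17 on the log2 scale, a 1.13-fold lower value, with -0.24, -0.10 and -0.16 in replicates 1, 2 and 3, while over all 9155 genes the median was -0.0096. In each of the 3 replicates 22 of the 38 genes (57.9%) were lower with TGF-β1, where 24.4% of all genes were, and 4 were higher in each, where 19.8% of all genes were. An unadjusted p under 0.05 was reached by 14 genes on the lower side, against 14.1% of all genes, and by CCNE2 alone on the higher side, against 8.41% of all genes. The treated and untreated arrays overlapped in all 38 genes, where for 5.83% of all genes every treated array lay below every untreated one. For 37 of the 38 genes this followed from replicate 3, both arrays of which lay above the other 4. The overlap therefore says nothing on the effect of TGF-β1.

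The calls rest on the comparison within replicates. Without the block, limma called 0 of 9155 genes, the lowest adjusted p among the 38 genes was 0.999, and none of them reached an unadjusted p under 0.05, as 535 of all genes did. The unequal-variance test named in the study's methods also called 0 genes, with 406 of all genes and none of the 38 at an unadjusted p under 0.05. Quantile normalization of the arrays left 0 of the 4 calls, and leaving out replicate 1, 2 or 3 left 1, 0 or 2.

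**Figure D1:**
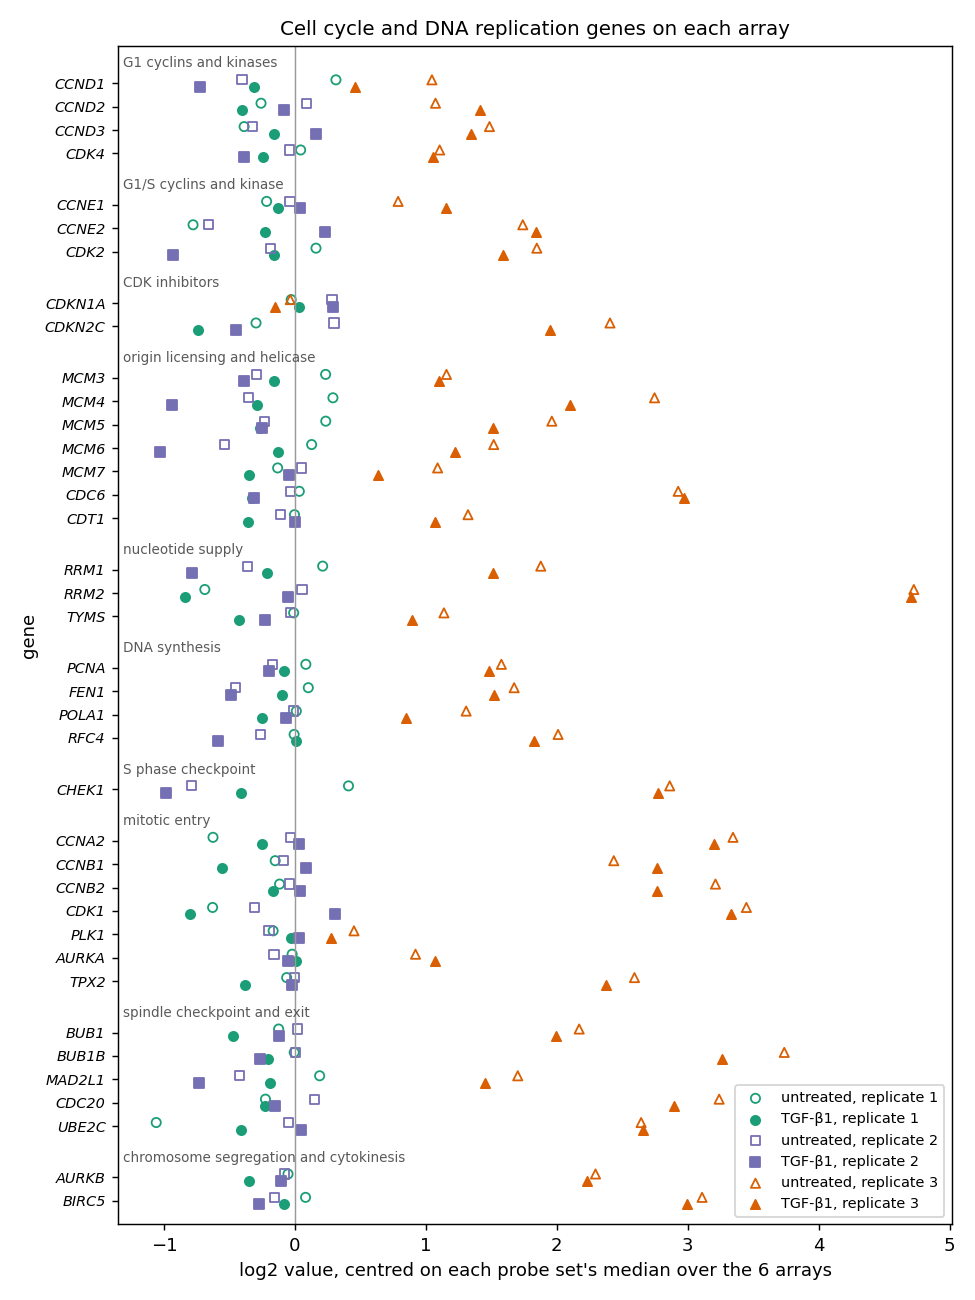
Value of each measured cell cycle gene on each of the 6 arrays, in log2 units centred on the median of each probe set, with genes in rows ordered by role, open symbols for untreated and filled symbols for TGF-β1 arrays, and shape and colour for the replicate. The triangles of replicate 3 lie right of all other symbols for 37 of 38 genes, and CDKN1A is the exception.

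Among the G1 genes, CCND1, which encodes the cyclin D1 that couples growth signals to the cycle, read 0.31, -0.40 and 1.05 on the untreated arrays of replicates 1, 2 and 3 and -0.31, -0.73 and 0.46 on the TGF-β1 arrays. Every treated array lay below its untreated partner, although treated replicate 3 was still above untreated replicates 1 and 2. CCND1 fell by 0.51 (SE 0.100, n = 3 pairs, adjusted p = 0.0307), a 1.43-fold lower value. The other D-type cyclins did not pass the test. CCND2 had a mean difference of 0.0077 (95% interval -0.29 to 0.30) with replicate 3 at 0.34 against -0.14 and -0.17, and CCND3 had one of 0.19 (95% interval -0.12 to 0.50) with replicate 3 at -0.14 against 0.23 and 0.48. CDK4, the kinase that D-type cyclins activate, was lower in each replicate, by 0.29, 0.34 and 0.05, with a mean of -0.23 (adjusted p = 0.233) that was not past the threshold.

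The means of the E-type cyclins lay above 0 and that of their kinase below, none past the test. CCNE2, encoding cyclin E2, which acts with CDK2 at entry into S phase, read -0.78, -0.66 and 1.74 untreated and -0.23, 0.23 and 1.84 with TGF-β1. The difference was 0.55 and 0.89 in replicates 1 and 2 but 0.10 in replicate 3, and the mean of 0.51 (SE 0.151) had an adjusted p of 0.0980. Without replicate 3 it was 0.72 with an adjusted p under the threshold. CCNE1, encoding cyclin E1, had 0.09, 0.07 and 0.36, with a mean of 0.18 (adjusted p = 0.366). Its probe sets had -0.09, 0.20 and 0.30 and 0.27, -0.05 and 0.43, so neither was higher in each replicate by itself. CDK2 differed by -0.32, -0.75 and -0.26, a mean of -0.44 (SE 0.119, adjusted p = 0.0798).

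Of the 2 CDK inhibitors measured, 1 fell. CDKN2C, encoding the p18 inhibitor of CDK4 and CDK6, read -0.30, 0.30 and 2.41 untreated and -0.74, -0.45 and 1.95 with TGF-β1. All 3 treated arrays were below their partners, and CDKN2C fell by 0.55 (SE 0.102, adjusted p = 0.0258), or 1.46-fold. CDKN1A, encoding p21, the inhibitor that p53 and TGF-β signals are known to induce in other cells, read -0.03, 0.28 and -0.04 untreated and 0.03, 0.29 and -0.15 with TGF-β1. Replicate 2 was the highest in both treatments, the groups overlapped, and the mean difference was -0.016 with a 95% interval of -0.23 to 0.20.

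For the helicase that unwinds DNA, all 5 measured MCM genes were lower in each replicate, with a median of -0.32, although MCM3 turned to 0.040 with 1 probe set a gene, and 1 passed the test. MCM4 read 0.29, -0.35 and 2.75 untreated and -0.29, -0.94 and 2.10 with TGF-β1. The 3 differences of -0.58, -0.59 and -0.64 hardly varied, although the arrays themselves span over 3 log2 units, and MCM4 fell by 0.60 (SE 0.0871, adjusted p = 0.0115), 1.52-fold, the lowest adjusted p among the 38 genes. MCM6 had -0.35 (adjusted p = 0.0821), MCM5 -0.32 (0.171), MCM7 -0.26 (0.201) and MCM3 -0.18 (0.364), none past the test. The probe sets of MCM3 disagreed, at -0.41 and 0.04, and only the former was high in replicate 3. Of the loaders that place the helicase at origins, CDC6 had -0.36, -0.28 and 0.04 and CDT1 -0.35, 0.12 and -0.25, so each had 1 replicate on the other side of 0.

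Genes for nucleotide supply were all lower in each replicate. RRM1, the large subunit of ribonucleotide reductase, read 0.21, -0.37 and 1.88 untreated and -0.21, -0.79 and 1.51 with TGF-β1, and its differences of -0.42, -0.42 and -0.37 were nearly equal. RRM1 fell by 0.40 (SE 0.0870, adjusted p = 0.0405), 1.32-fold. RRM2, the small subunit, whose level follows S phase, had -0.15, -0.11 and -0.02, a mean of -0.093 with a 95% interval of -0.30 to 0.12, and 0.082 after quantile normalization. TYMS, which makes thymidylate, had -0.28 (adjusted p = 0.133) as the mean of a probe set at -0.53, which passed when probe sets were tested singly (adjusted p = 0.0360), and another at -0.03, which was not high in replicate 3.

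Genes of DNA synthesis itself were lower by little. None of the 4 passed, where 4.58% of all genes were called lower. PCNA, the sliding clamp, read 0.08, -0.17 and 1.58 untreated and -0.08, -0.20 and 1.48 with TGF-β1, a mean difference of -0.095 with a 95% interval of -0.31 to 0.12. FEN1, the nuclease that trims Okazaki fragments, had -0.13 (adjusted p = 0.468), POLA1, the catalytic subunit of the polymerase that makes primers, -0.26 (0.210) and RFC4, a subunit of the clamp loader, -0.16 (0.406). CHEK1, the kinase of the replication checkpoint, had -0.82, -0.20 and -0.09, so its mean of -0.37 (SE 0.149, adjusted p = 0.203) came mostly from replicate 1.

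None of the 14 measured mitotic genes passed the test in either direction, where 4.58% of all genes were called lower and 2.24% higher. In a list of 14 genes this count is near those shares. The genes of mitotic entry lay on both sides of 0: CCNA2, encoding cyclin A2, at 0.099, CCNB1 and CCNB2, the B-type cyclins, at 0.032 and -0.14, their kinase CDK1 at 0.11, PLK1 and AURKA, kinases of centrosome and spindle, at 0.064 and 0.095, and TPX2, the activator of AURKA, at -0.18. Their 95% intervals all held 0, and 5 of the 7 changed sign between replicates. CDK1, for example, read -0.63, -0.31 and 3.45 untreated and -0.80, 0.31 and 3.33 with TGF-β1, so that only replicate 2 was higher with TGF-β1, by 0.61.

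The 3 spindle checkpoint genes lay below 0 in each replicate. BUB1B read -0.01, 0.01 and 3.74 untreated and -0.21, -0.27 and 3.26 with TGF-β1, MAD2L1 read 0.19, -0.42 and 1.70 against -0.19, -0.73 and 1.45, and BUB1 differed by -0.35, -0.14 and -0.18. Each treated array was below its partner in all 3 genes, with means of -0.32 (BUB1B, adjusted p = 0.107), -0.31 (MAD2L1, 0.0903) and -0.22 (BUB1, 0.215), none of them past the test. CDC20 and UBE2C, the activator and the ubiquitin-conjugating enzyme of the anaphase-promoting complex, differed in sign, at -0.21 and 0.25, and for UBE2C the difference was 0.65 in replicate 1 against 0.09 and 0.02. AURKB and BIRC5, kinase and survivin subunit of the chromosomal passenger complex, had -0.13 each and were lower in each replicate. The probe sets of AURKB disagreed, at -0.28 and 0.013, and only the former was lower in each replicate.

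**Figure D2:**
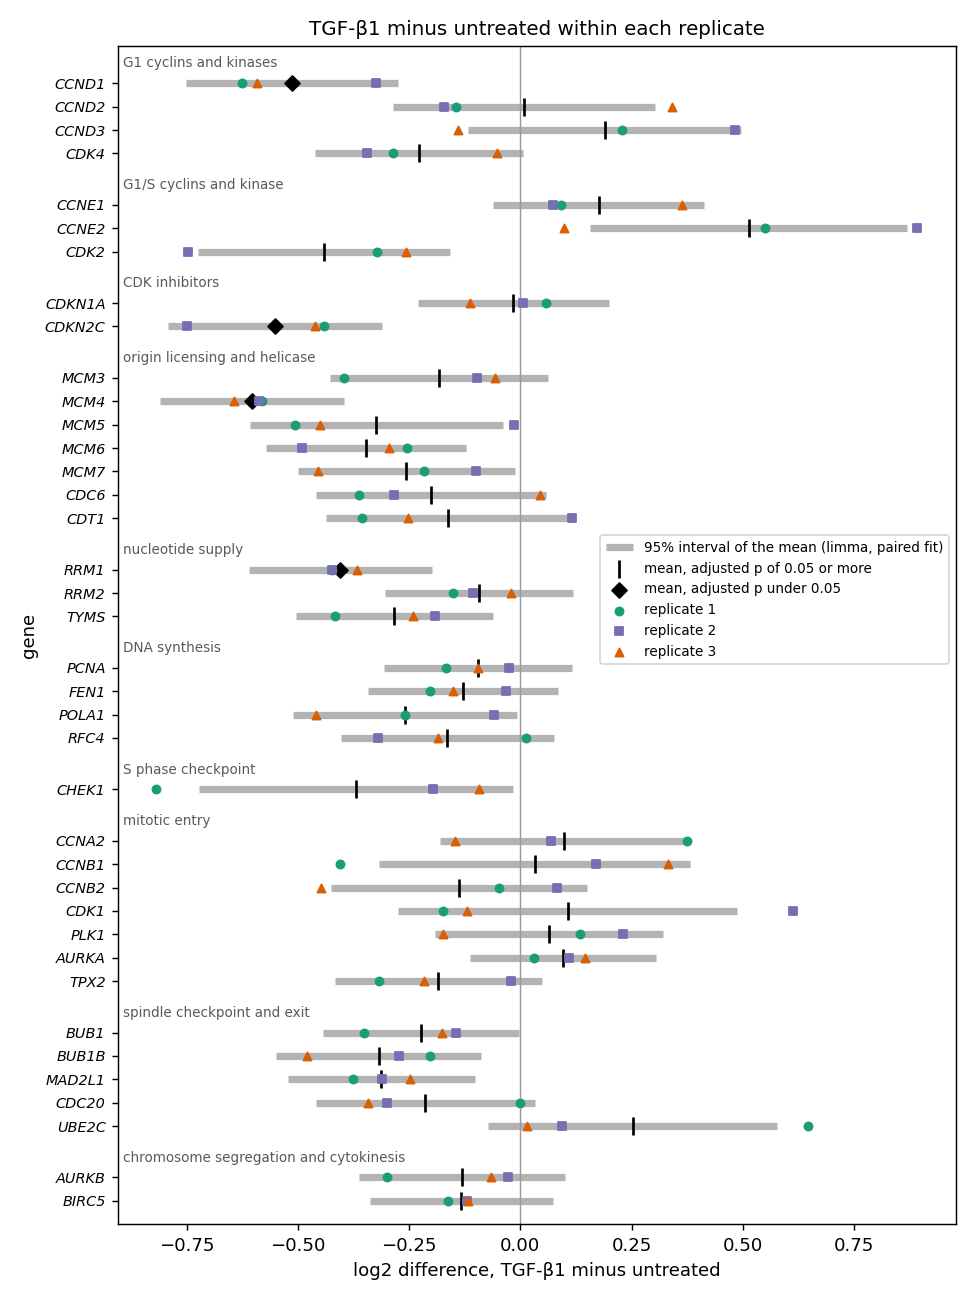
Log2 difference, TGF-β1 minus untreated, for each measured cell cycle gene, with 1 point per replicate, the mean as a tick or, where the adjusted p is under 0.05, a diamond, and the 95% interval of the limma fit with the replicate as a block as a grey bar. The 4 diamonds, CCND1, CDKN2C, MCM4 and RRM1, lie between -0.60 and -0.40, and 28 of the 38 means lie left of 0.

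Within the list, S phase genes, taken as the MCM, RRM and PCNA genes, lay lower than the mitotic genes. The 8 measured S phase genes had a median difference of -0.29 and all 8 were lower in each replicate, although RRM2 turned to 0.082 after quantile normalization and MCM3 to 0.040 with 1 probe set a gene. The 14 mitotic genes had a median of -0.13, with 6 lower and 2 higher in each replicate, where 24.4% and 19.8% of all genes were. By replicate the S phase median was -0.33, -0.10 and -0.33 and the mitotic one -0.17, 0.02 and -0.16. S phase minus mitotic was thus -0.16, -0.13 and -0.17 in replicates 1, 2 and 3 (SD 0.0227), and the difference of the medians over the fitted means was -0.16. With a broader S phase list of 17 measured genes, which adds the E-type cyclins, the loaders, TYMS, CHEK1 and further synthesis genes, the difference was -0.068, with -0.09, -0.12 and -0.02 by replicate. The further genes of the cycle described below did not show this contrast. There 35 replication genes had a median of -0.10 and 41 mitotic genes one of -0.11. As the members were chosen genes, these medians are a description without a test.

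**Figure D3:**
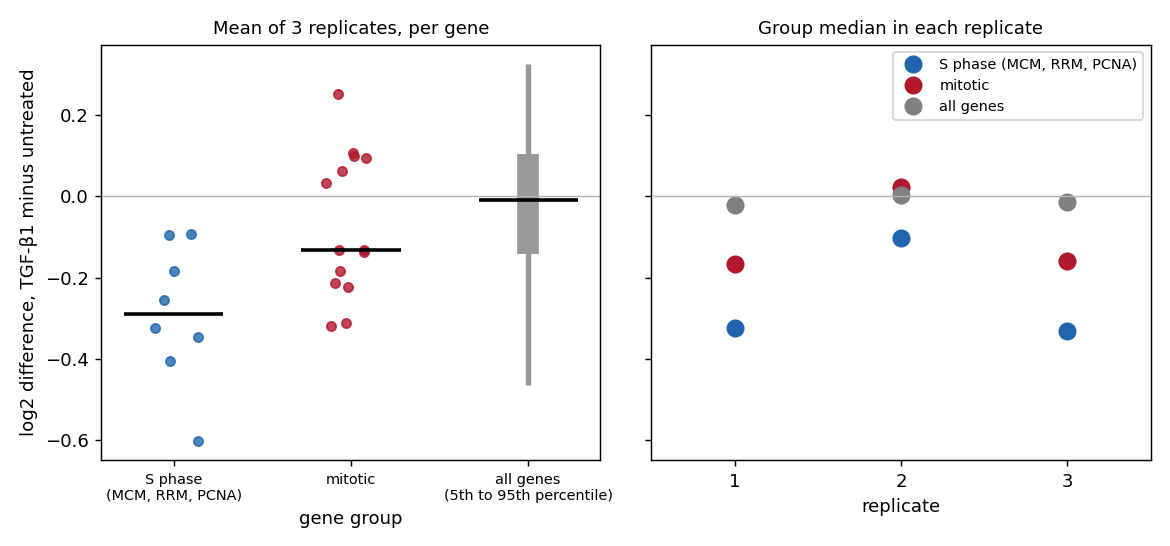
Left, the mean log2 difference of each S phase and mitotic gene as a point with the group median as a line, beside the median, the middle 50% (thick bar) and the 5th to 95th percentile (thin bar) of all genes; right, the median of each group in each replicate. The S phase median lies below the mitotic one in each replicate, and all points of both groups except MCM4 lie inside the 5th to 95th percentile of all genes, -0.47 to 0.33.

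The difference between replicates was far larger than that between treatments. As replicate 3 was already known to be high in these genes, the counts below describe that height and are no new test of it. By the F test of the replicate term in the same fit, 37 of the 38 genes differed between replicates at an adjusted p under 0.05, where 34.9% of all genes did, and for 37 of 38 both replicate 3 arrays lay above the other 4 arrays, where 22.4% of all genes had this. Against the mean of replicates 1 and 2, replicate 3 was higher by a median of 1.96 in the untreated and 1.96 in the TGF-β1 cultures. CDKN1A was the only 1 of the 38 genes without this gap. Its replicate term had an adjusted p of 0.0683, and replicate 3 lay 0.16 below replicates 1 and 2 untreated and 0.31 below with TGF-β1.

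The height in replicate 3 varied with the role of the gene, which is given without a test. The 14 mitotic genes had medians of 2.89 untreated and 2.83 with TGF-β1, the 8 S phase genes 1.84 and 1.79, and the 4 G1 cyclin and kinase genes 1.13 and 1.36. RRM2 was the highest, reading -0.69, 0.05 and 4.73 untreated and -0.84, -0.05 and 4.71 with TGF-β1, which put replicate 3 above the others by 5.04 and 5.15, whereas RRM1 stood up by 1.95 and 2.01. PLK1 stood up least among the 37, by 0.63 and 0.28 (adjusted p = 0.0477). Across the 38 genes the gap in the untreated and in the TGF-β1 cultures had a Pearson r of 0.967, from separate arrays of the same replicates, and genes are not independent points.

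Replicates 1 and 2 differed as well, in a pattern that split the list. Fitted on their 4 arrays alone, 8 of the 38 genes (9.32% of all genes, 853 of 9155, were called) passed, with 6 higher in replicate 1 and 2 lower, and adjusted p-values from 0.0115 to 0.0397. Higher in replicate 1 were CHEK1 by 0.89, MCM6 by 0.78, MCM4 by 0.65, MAD2L1 by 0.58, RRM1 by 0.58 and CCND1 by 0.57. Lower were RRM2 at -0.76 and UBE2C at -0.74. In both treatments 5 of the 8 S phase genes were higher in replicate 1 and 2 lower, whereas of the 14 mitotic genes 3 were higher and 8 lower. Of all 9155 genes 3443 were higher and 2831 lower, and of the 17 genes of the broad S phase list 8 were higher and 4 lower. Untreated and TGF-β1 arrays, which share no array, gave this difference with a Pearson r of 0.786 and a Spearman rho of 0.828 across the 38 genes. So 3 of the 4 genes that fell with TGF-β1 (CCND1, MCM4 and RRM1) were also higher in replicate 1 than in replicate 2, while CDKN2C had -0.44 (adjusted p = 0.0816).

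**Figure D4:**
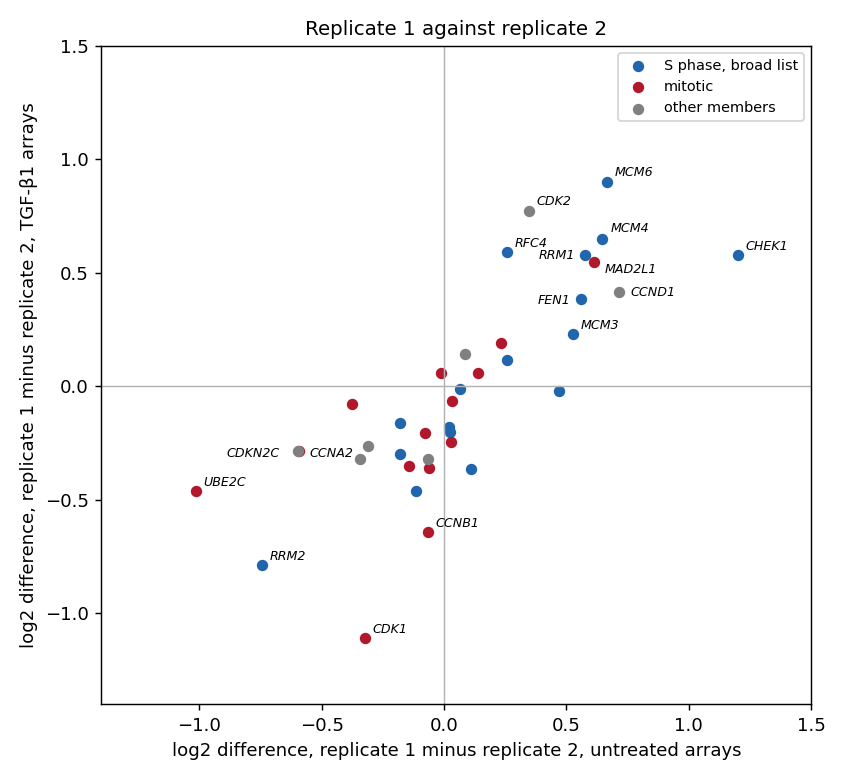
Log2 difference, replicate 1 minus replicate 2, of each measured cell cycle gene on the untreated arrays (horizontal axis) and on the TGF-β1 arrays (vertical axis), with S phase genes of the broad list, mitotic genes and other genes in separate colours. Named genes differ by over 0.5 on either axis, and MCM6, MCM4, RRM1 and CHEK1 lie at the upper right while UBE2C, RRM2 and CDK1 lie at the lower left.

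Other genes of the cycle, 191 listed by role of which 120 were measured, had 5 that fell (4.17%, near the 4.58% of all genes called lower), 3 that rose (against 2.24% of all genes) and 112 that did not pass, with a median of -0.090. In each replicate 40 of the 120 (33.3%) were lower, a share between that of the listed genes above (57.9%) and that of all genes (24.4%). Of 35 further replication genes, 16 (45.7%) were lower in each replicate and the median was -0.10. CHAF1A, a subunit of the factor that places histones behind the fork, read 0.15, -0.15 and 2.39 untreated and -0.41, -0.60 and 2.01 with TGF-β1, each treated array below its partner, and was the 1 of the 35 that fell, by 0.47 (SE 0.0907, adjusted p = 0.0303). In a list of 35 genes that 1 call (2.86%) is near the 4.58% of all genes called lower. Of 41 further mitotic genes 14 (34.1%) were lower in each replicate, with a median of -0.11. STMN1, which destabilises microtubules, was the 1 of the 41 that fell, by 0.55 (SE 0.0946, adjusted p = 0.0204). In a list of 41 genes that 1 call (2.44%) is likewise near the share of all genes called lower. Between replicates 1 and 2 the further replication genes again leaned one way, 22 of 35 being higher and 4 lower in replicate 1 in both treatments, and the further mitotic genes the other way, with 7 of 41 higher and 19 lower, where 3443 of all 9155 genes were higher and 2831 lower.

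Of 9 further regulators of cyclin-dependent kinases 2 fell, where 4.58% of all genes did. CKS1B, a small subunit that binds the kinases, read -0.03, 0.03 and 1.16 untreated and -0.70, -0.69 and 0.71 with TGF-β1, and fell by 0.61 (SE 0.0968, adjusted p = 0.0151). CCNG1, a cyclin induced by p53, fell by 0.44 (SE 0.0882, adjusted p = 0.0325). All 3 treated arrays lay below their partners for both genes. None of the 12 E2F, RB and DREAM genes, which control transcription of the others, passed the test, with a median of 0.016, and none of the 4 measured genes of DNA damage and S phase repair did. With 4.58% of all genes called lower and 2.24% higher, lists of 12 and 4 genes would hold few calls.

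Genes through which TGF-β is known to halt the cycle in epithelial cells were mostly not past the test. In the group of MYC and such cytostatic genes, 1 of 7 passed, where 4.58% of all genes were called lower. This was ID3, an inhibitor of differentiation factors that TGF-β represses in other cells. It read 0.15, -0.15 and 2.80 untreated and -0.88, -0.70 and 0.59 with TGF-β1. ID3 fell by 1.26 (SE 0.278, adjusted p = 0.0435), with replicate 3 at -2.21 against -1.04 and -0.55. In the same list ID1 had -0.064 (adjusted p = 0.835), with replicate 3 at -0.46 against 0.12 and 0.16. ID2 had 0.22 (adjusted p = 0.303), so neither followed ID3 past the test. MYC had 0.23 (adjusted p = 0.280) and CDKN2B, encoding the p15 inhibitor, 0.069 (0.762). CDKN1C, another CDK inhibitor, was lower in each replicate, with a mean of -0.24 (adjusted p = 0.212) that was not past the threshold. These genes were named after their values were seen. Among 12 p53 and growth arrest genes 3 rose and none fell, where 2.24% of all genes rose and 4.58% fell. GADD45B, a stress gene that TGF-β is known to induce, read -0.84, -0.63 and -0.02 untreated and 0.36, 0.02 and 0.74 with TGF-β1, with no overlap between groups, and rose by 0.87 (SE 0.123, adjusted p = 0.0108). PLK3, a stress-responsive kinase of the polo family, read -0.30, -0.38 and -0.50 against 0.92, 0.30 and 0.37, again without overlap, and rose by 0.92 (SE 0.121, adjusted p = 0.00856). GAS2, a cytoskeletal gene named for its expression in arrested cells, rose by 1.37 (SE 0.156, adjusted p = 0.00534), or 2.59-fold, the largest size among the 120 genes.

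Markers of cell types were read beside these results, although centring removed the levels that would show which types were present. The mean over 11 measured chondrocyte genes of 20 listed was -0.14, 0.66 and -0.59 on the untreated arrays of replicates 1, 2 and 3 and -0.21, 0.59 and -0.54 on the TGF-β1 arrays, and all 11 were lower in replicate 1 than in replicate 2 in both treatments. In replicate 3, where the cell cycle genes were high, 5 of the 11 lay below the other 4 arrays, as 1492 of all 9155 genes did. COL11A2, a fibrillar collagen chain of cartilage, was at -2.48 and -2.94 against the mean of replicates 1 and 2. COL2A1, encoding the main cartilage collagen, was at 0.12 and -0.05. Among 7 measured genes of hypertrophic chondrocytes and bone, 3 lay below the other 4 arrays in replicate 3 and 1 above, COL10A1 at 2.16 and 2.20, and the medians were -0.15 untreated and -0.089 with TGF-β1. With TGF-β1, 2 of the 11 chondrocyte genes rose (COMP and PRG4) and 2 fell (COL11A1 and CNMD), where 2.24% of all genes rose and 4.58% fell. Of the 7 hypertrophic and bone genes 1 fell and 0 rose, where 4.58% and 2.24% of all genes did. IBSP, encoding bone sialoprotein, was the gene that fell, by 1.12 (SE 0.0950, adjusted p = 0.00237). The median of the 7 was 0.021, with 4 means above 0, among them IHH at 1.12 (SE 0.315, adjusted p = 0.0873). Among 9 measured genes of fibroblasts or dedifferentiated cells 2 fell, COL1A2 by 0.57 (adjusted p = 0.0282) and S100A4 by 0.49 (adjusted p = 0.0298). Of these 9 genes 6 were lower in each replicate, where 24.4% of all genes were, and the median was -0.18, beside -0.17 for the cell cycle genes. Lists of leukocyte, endothelial and erythroid genes (8, 8 and 5 measured) had 0 genes called by limma, and 1, 1 and 0 with an unadjusted p under 0.05. Lists this short are too small for a count of 0 to be read against the 4.58% and 2.24% of all genes called. The leukocyte mean ran from -0.11 to 0.34 untreated and from -0.05 to 0.33 treated, highest in replicate 1. That height came from CD14 (1.19 untreated and 1.18 treated in replicate 1) and CD68 (1.38 and 1.47). The other measured genes of the list, PTPRC among them, lay between -0.08 and 0.20 on the replicate 1 arrays. The part of cell type makeup in the cell cycle results was not tested.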

How the data were processed

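Values came from a deposited table of 24128 probe sets on 6 arrays. The authors amplified the RNA, hybridized it to the bovine array and applied Robust Multichip Average in GeneSpring; the deposited values are log2 and centred on each probe set's median (largest absolute median 5e-07). Centring removed the levels, so no filter on dim probe sets was possible. After 112 controls were left out, 24016 probe sets remained, of which 13292 had 1 symbol, 86 several and 10638 none in the array annotation (13263 symbols updated by Entrez ID). Probe sets of a gene were averaged, giving 9155 genes, 2913 with more than 1 probe set, including 11 of the 38 listed genes. No 2 arrays shared more than 56 values.

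Differences within replicate number were fitted with limma 3.58.1 (R 4.3.3), with treatment and replicate as terms, 2 residual degrees of freedom, a prior SD of 0.125 and a 5% Benjamini-Hochberg threshold (0.05) over all genes. Same-numbered arrays deviated together from their group means (r at least 0.694, against -0.683 to 0.185 for other pairs), and by the study's account each cow gave cultures for both treatments, which makes the number a probable pairing. Deviations from a mean of 3 sum to 0 in each group, which pushes the correlations of other pairs below 0. Between replicates 1 and 2 these were 0.185 and 0.058, against 0.740 and 0.694 for their same-numbered arrays. The prior, drawn from all genes, had 4.98 degrees of freedom, so it weighed more than the 2 of each gene. Replicates 1 and 2 were also fitted alone. The fits were checked on simulated data whose noise was drawn from the fitted prior. The pass mark for recovery was set on differences larger than those of the called listed genes. That for false calls was looser than the 5% threshold, so the check does not speak to calls of this size. Figures were drawn with matplotlib 3.10.9. Alternatives were quantile normalization, array centring, 1 probe set per gene, single probe sets, robust moderation (statmod 1.5.0), no block, the unequal-variance test, leaving out each replicate, and means for medians. All measured listed genes are named, and of other lists each called gene, as 5 or fewer were called per list and direction, with further genes said to be chosen later or shown as markers. Genes and lists were chosen with earlier results of these data known. Arrays per group, 3, limit the precision.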

Additional observations from a re-analysis of the deposited data

How the results depend on the processing

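The count of genes that fell, 4 with the replicate block, was also 4 after array centring, with 1 probe set per gene, with robust moderation and on single probe sets, where a TYMS probe set stood in for RRM1 (adjusted p = 0.0596). It was 0 after quantile normalization (adjusted p from 0.0824 for MCM4 to 0.209 for RRM1), 0 with no replicate block, 0 by the unequal-variance test and 0 to 2 when a replicate was left out: MCM4 alone passed without replicate 1, none without replicate 2, and CDKN2C and MCM4 without replicate 3. The cause was not tested, beyond the fewer arrays when a replicate is left out. The count of genes that rose, 0, was 0 to 1 without a replicate, the 1 being CCNE2 without replicate 3 (0.72, adjusted p = 0.0274). The median difference of -0.17 ran from -0.18 to -0.11 over its alternatives, less than the spread between replicates.

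S phase minus mitotic, -0.16, was -0.23 with 1 probe set per gene, -0.22 with means in place of medians, -0.068 with the broad S phase list and -0.17 to -0.12 without a replicate. The number of genes that differed between replicates, 37, was 8 to 37 without a replicate, the 8 being without replicate 3. The median by which replicate 3 exceeded the others, 1.99 over both treatments, was 1.44 after quantile normalization and 1.74 to 2.16 without replicate 2 or 1.

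Of 342 values for single genes under an alternative, 306 kept sign and call, 21 lost a call, 1 gained one and 14 changed sign, none of those in a called gene. The 14 were RRM2 at 0.082, FEN1 at 0.00087 and CCNB1 at -0.00057 after quantile normalization, CCND2 at -0.0020 after array centring, MCM3 at 0.040 and AURKB at 0.013 with 1 probe set per gene, and 8 without a replicate. Those 8 lay in 7 genes, whose values without a replicate ran from -0.16 to 0.098 (CCND2), -0.053 to 0.032 (CDKN1A), -0.039 to 0.22 (CCNA2), -0.12 to 0.25 (CCNB1), -0.25 to 0.017 (CCNB2), -0.15 to 0.25 (CDK1) and -0.020 to 0.18 (PLK1).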
